A study of Mus musculus with 10 samples.

Results

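The CCN genes encode secreted proteins of the extracellular matrix. The genes Ccn1 to Ccn5 were followed together with Ankrd1 in mouse bone marrow mesenchymal stromal cells. The 6 genes were taken as the probe sets whose only gene symbol in the platform annotation was one of these names. Each gene had 1 such probe set, out of 19938 genes named in the same way. These cells are plastic-adherent and able to become bone or fat cells. They came from the marrow of female C57BL/6J mice aged 6 to 8 weeks and were grown to passage 16 to 17 in MesenCult medium with a mesenchymal supplement. The 5 preparations, MSC I, MSC II, MSC III, MSC IV and MSC V, were each hybridised to 2 arrays, 10 in all. No preparation received a treatment and none was named as a control, so the comparisons were among all 5 and between each pair. The labels do not say whether the 2 arrays of a preparation came from separate cultures, so each p-value is set against a spread between arrays that may be technical only. Precision is limited by the small number of arrays.

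CCN proteins are called matricellular because they act on cells from within the matrix, through integrins and heparan sulphate proteoglycans, without being structural fibres. Ccn1 (formerly Cyr61) and Ccn2 (formerly Ctgf, connective tissue growth factor) are textbook targets of YAP and TAZ, transcription coactivators that enter the nucleus of spread or stretched cells and act through TEAD factors. Ankrd1, a nuclear and sarcomeric ankyrin repeat protein, is a target of the same kind and is not a CCN gene. Ccn3 (formerly Nov) is known for limiting osteoblast differentiation and for counteracting Ccn2. Ccn4 (formerly Wisp1) was described as a Wnt-induced gene and favours osteoblast differentiation, and Ccn5 (formerly Wisp2) lacks the C-terminal module of the other family members.

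Promoter windows of Ccn1 and Ankrd1, 2 of the 6 genes, were matched in RefSeq sequence of build GRCm38.p6. They are shown because promoters of Ccn2 to Ccn5 were not among the sequences available here, so those genes were not searched. Each window runs from 250 bases before the gene start to 50 after it, and the capitals mark the TEAD motif GGAATG or its reverse complement CATTCC. The Ccn1 window lies at chr3:145649936-145650235 on the minus strand and that of Ankrd1 at chr19:36119795-36120094 on the minus strand.
Ccn1: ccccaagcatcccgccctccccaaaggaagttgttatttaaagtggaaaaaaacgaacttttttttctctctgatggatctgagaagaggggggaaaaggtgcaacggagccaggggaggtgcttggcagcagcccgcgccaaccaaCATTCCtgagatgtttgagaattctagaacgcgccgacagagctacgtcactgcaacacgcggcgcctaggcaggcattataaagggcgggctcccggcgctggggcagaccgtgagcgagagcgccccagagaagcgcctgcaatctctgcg
Ankrd1: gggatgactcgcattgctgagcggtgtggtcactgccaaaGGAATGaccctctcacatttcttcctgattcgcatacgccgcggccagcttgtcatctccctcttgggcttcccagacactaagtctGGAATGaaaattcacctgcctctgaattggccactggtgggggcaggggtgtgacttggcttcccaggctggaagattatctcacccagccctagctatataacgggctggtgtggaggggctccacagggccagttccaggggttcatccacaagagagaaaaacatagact
The Ccn1 window held 1 match, starting at position -103 from the gene start on the opposite strand, and the Ankrd1 window held 2, starting at -210 and -123 on the gene's own strand. At least 1 match was present in 14.7% of all 32851 promoter windows searched and at least 2 in 1.36%. A match describes these letters and does not show that a factor binds there.

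Of the 6 genes, 5 differed among the preparations in limma's moderated F test, against 29.1% of the 10971 genes tested. A gene was called when its p-value, adjusted by Benjamini-Hochberg over all tested genes, was under 0.05 and its preparation means spanned at least 1 log2, a level being the deposited log2 expression value. All 6 genes passed the low-value filter, at least 2 arrays above the median of the whole table (6.55 log2). The range of preparation means was 5.21 for Ccn3, 4.82 for Ankrd1, 4.56 for Ccn5, 3.01 for Ccn4, 2.44 for Ccn2 and 0.21 for Ccn1. The median range over all tested genes was 0.75. Over the 10 pairs of preparations, 23 of 60 gene and pair combinations were called (38.3%), against 9.56% for all tested genes. Of these calls, 8 of 30 fell to Ccn1, Ccn2 and Ankrd1 and 15 of 30 to Ccn3, Ccn4 and Ccn5.

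**Figure D1:**
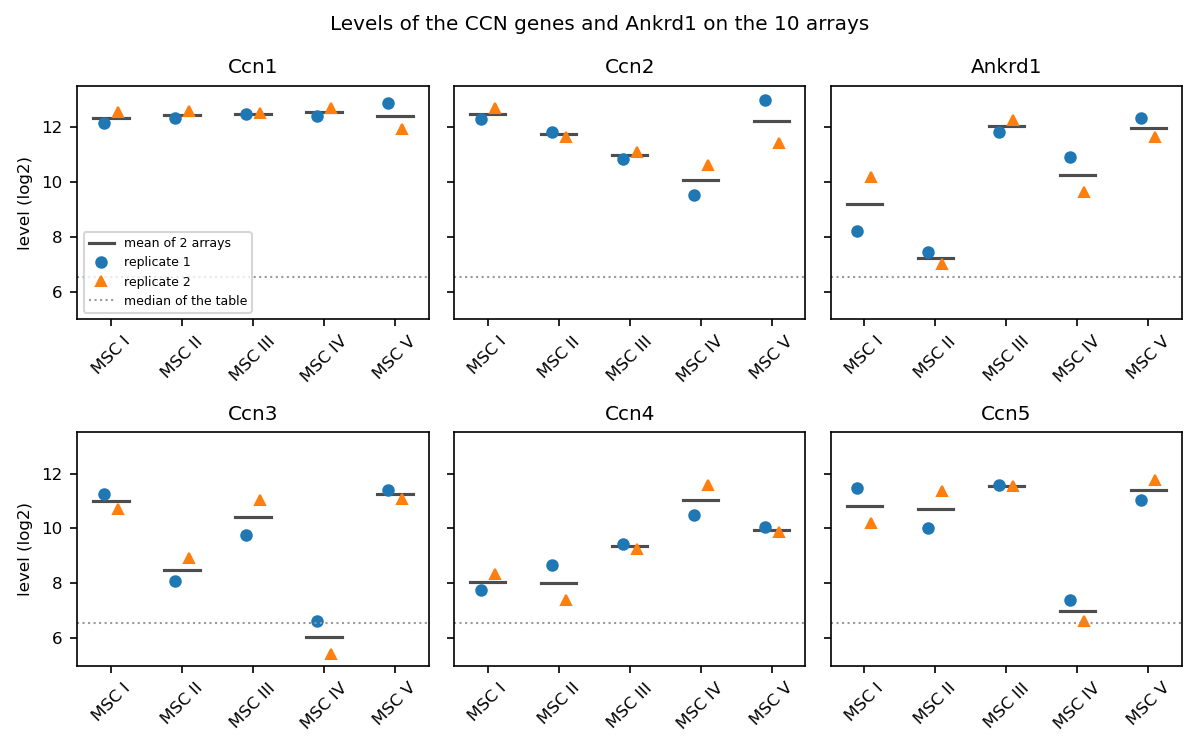
Level (log2) of each gene on the 10 arrays, with the 2 replicates of each preparation as a circle and a triangle, their mean as a bar and the median of the table (6.55) as a dotted line. Ccn1 lay between 11.92 and 12.88 on all arrays, Ccn3 and Ccn5 were lowest in MSC IV and Ccn4 was highest there. Levels of different genes come from different probe sets and cannot be set against each other.

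The labelled cell type was compared with its markers. Of 7 stromal markers with a probe set, 5 or 6 lay above the table median on both arrays of every preparation, Cd44 and Pdgfrb among them. Eng did so in MSC IV alone (9.60 ± 0.13, SD, n = 2) and Thy1 in MSC II alone. Ptprc, the pan-leukocyte antigen, Adgre1, Csf1r and Itgam stayed below the median on all 10 arrays, as did the endothelial genes Pecam1, Cdh5, Kdr and Tek. Of 8 blood cell markers, 3 were above it on both arrays in MSC V (Cd34, Cd68 and Cd14), 2 in MSC II and MSC III, and 1 in MSC I and MSC IV. The mean level of the 8 genes was 6.52 to 6.58 log2 in MSC V and 5.31 to 6.36 on the other arrays, and its part in the results was not tested. In such bulk samples, fewer cells of a type and less RNA per cell cannot be told apart. Of 9 markers of striated muscle, the tissue in which Ankrd1 is best known, Tnnt2 exceeded the median on both MSC V arrays and the others on none.

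Ccn1 was high and did not pass the test for a difference. Its level was 12.14 and 12.55 in MSC I, 12.33 and 12.57 in MSC II, 12.48 and 12.50 in MSC III, 12.41 and 12.70 in MSC IV, and 12.88 and 11.92 in MSC V. The arrays of every pair of preparations overlapped, and the highest and the lowest value were the 2 arrays of MSC V. The range of preparation means was 0.21 (adjusted p = 0.962), with 2.73% of tested genes having a smaller one, and limma called 0 of 10 pairs, with 0 also at an unadjusted p under 0.05. The largest difference, MSC I minus MSC IV, was -0.21 ± 0.30 (SE), and the 95% intervals of the 10 differences ran from -0.90 to 0.85 log2, which bounds how large an undetected difference could be.

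Ccn2, the growth factor-like family member linked to fibrosis and cartilage formation, was highest in MSC I and MSC V and lowest in MSC IV. Its level was 12.30 and 12.68 in MSC I, 11.82 and 11.64 in MSC II, 10.85 and 11.11 in MSC III, 9.51 and 10.60 in MSC IV, and 12.99 and 11.43 in MSC V. Both MSC IV arrays lay below every other array, while the MSC V arrays spanned the whole of MSC I and MSC II. The means ran in the order MSC I, V, II, III and IV, and no neighbours in that order were called different. MSC I exceeded MSC IV by 2.44 ± 0.51 (adjusted p = 0.00707), a 5.43-fold difference, and this call held under all 17 alternatives. MSC IV minus MSC V was -2.16 ± 0.51 (adjusted p = 0.0226). That second call ended without MSC IV replicate 1 (-1.61, adjusted p = 0.105) or MSC V replicate 1 (-1.38, adjusted p = 0.0854), within a range of 0.00827 to 0.105 over the alternatives. The F test (adjusted p = 0.0241) was not past the threshold with MSC I replicate 1 left out (adjusted p = 0.0533), nor with its replicate 2 (adjusted p = 0.06) or MSC IV replicate 1 (adjusted p = 0.0741) left out, within a range of 0.00629 to 0.0741. Without either MSC V array the differences MSC I minus MSC III (1.52) and MSC II minus MSC IV (1.68) were called, with adjusted p between 0.0202 and 0.0212. They were not called with all arrays (adjusted p = 0.0638 and 0.0598), and over the alternatives their adjusted p lay between 0.0202 and 0.235.

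Ankrd1 had the widest differences of the YAP-driven genes and followed another order. Its level was 8.20 and 10.16 in MSC I, 7.44 and 7.00 in MSC II, 11.83 and 12.24 in MSC III, 10.90 and 9.64 in MSC IV, and 12.32 and 11.64 in MSC V. The MSC II arrays lay below all others, and those of MSC III and MSC V above all others. MSC II minus MSC III was -4.82 ± 0.65 (adjusted p = 0.00733) and MSC II minus MSC V was -4.75 ± 0.65 (adjusted p = 0.00525), so that the level was 28.1-fold lower in MSC II than in MSC III. MSC II was also below MSC IV (-3.05, adjusted p = 0.0175). MSC I minus MSC III (-2.86, adjusted p = 0.0167), MSC I minus MSC V (-2.80, adjusted p = 0.0188) and MSC I minus MSC II (1.96, adjusted p = 0.0473) were called as well. In the order MSC III, V, IV, I and II, MSC I and MSC II were the only neighbours called different.

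Of the 6 pair calls of Ankrd1, that between MSC II and MSC V held under all 17 alternatives. The call between MSC II and MSC III ended without MSC II replicate 2 (adjusted p = 0.0572) or MSC III replicate 2 (adjusted p = 0.0588), over a range of 0.0035 to 0.0588. Between MSC II and MSC IV it ended without MSC II replicate 2 (-2.83, adjusted p = 0.1) or MSC IV replicate 1 (-2.42, adjusted p = 0.0825), over a range of 0.00628 to 0.1. The arrays of MSC I lay 1.96 apart, and its comparisons changed with the array left out. Without MSC I replicate 1, MSC I minus MSC III was -1.87 (adjusted p = 0.0758) and MSC I minus MSC V -1.81 (adjusted p = 0.0712), neither called, while MSC I minus MSC II was 2.94 (adjusted p = 0.0131). Without MSC I replicate 2, MSC I minus MSC II was 0.98 (adjusted p = 0.215) and MSC I minus MSC IV was called (-2.07, adjusted p = 0.0266, against -1.09 and adjusted p = 0.202 with all arrays). MSC I minus MSC III was also not called when either array of MSC III was left out (adjusted p = 0.067 for replicate 1 and 0.0795 for replicate 2), over a range of 0.00756 to 0.0795, and MSC I minus MSC V not without MSC V replicate 1 (adjusted p = 0.0905), over a range of 0.00845 to 0.0905. The call between MSC I and MSC II was lost without either array of MSC II (adjusted p = 0.102 and 0.161), MSC III (0.0667 both times) or MSC V (0.0565 both times), and with the replicate number as a block (adjusted p = 0.0734), over a range of 0.0131 to 0.215. Without either array of MSC I, MSC III minus MSC IV (1.77) and MSC IV minus MSC V (-1.71) were called, with adjusted p of 0.0433 and 0.0357. With all arrays these had adjusted p of 0.105 and 0.0914, and over the alternatives they ranged from 0.0357 to 0.44.

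Ccn3 was close to the bottom of the scale in MSC IV and high in MSC I, MSC III and MSC V. Its level was 11.26 and 10.71 in MSC I, 8.08 and 8.91 in MSC II, 9.78 and 11.04 in MSC III, 6.64 and 5.43 in MSC IV, and 11.41 and 11.08 in MSC V. The MSC IV arrays lay below all others, 1 of them below the table median, and those of MSC II lay between MSC IV and the rest. The difference was 4.95 ± 0.53 for MSC I minus MSC IV (adjusted p = 0.000362), 4.37 ± 0.53 for MSC III minus MSC IV (adjusted p = 0.00241) and -5.21 ± 0.53 for MSC IV minus MSC V (adjusted p = 0.000895). These calls held under all 17 alternatives, with differences of 4.35 to 5.56, 3.74 to 5.00 and -5.82 to -4.61 when 1 array was left out. Since 1 MSC IV array lay below the table median and no detection calls were used, no fold is given against MSC IV.

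MSC II was intermediate for Ccn3, with 2.49 for MSC I minus MSC II (adjusted p = 0.00942), 2.46 for MSC II minus MSC IV (adjusted p = 0.0182) and -2.75 for MSC II minus MSC V (adjusted p = 0.0168). The call against MSC I ended when replicate 1 of MSC I was left out (2.22, adjusted p = 0.0577) and when that of MSC II was (2.08, adjusted p = 0.0557), over a range of 0.00746 to 0.0577. That against MSC IV ended without MSC II replicate 2 (2.05, adjusted p = 0.112) or MSC IV replicate 2 (1.86, adjusted p = 0.115), over a range of 0.0159 to 0.115. That against MSC V ended without MSC II replicate 1 (-2.34, adjusted p = 0.0795), MSC V replicate 1 (-2.58, adjusted p = 0.0807) or MSC V replicate 2 (-2.91, adjusted p = 0.0519), over a range of 0.0137 to 0.0807. In the order MSC V, I, III, II and IV, MSC II and MSC IV were the only neighbours called different.

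Ccn5 separated MSC IV from the other preparations. Its level was 11.46 and 10.20 in MSC I, 10.02 and 11.37 in MSC II, 11.58 and 11.54 in MSC III, 7.38 and 6.62 in MSC IV, and 11.05 and 11.78 in MSC V. Both MSC IV arrays were more than 2 log2 below every other array, and the arrays of MSC I and MSC II overlapped. The difference was 3.83 ± 0.55 for MSC I minus MSC IV (adjusted p = 0.00142), 3.69 ± 0.55 for MSC II minus MSC IV (adjusted p = 0.00432), 4.56 ± 0.55 for MSC III minus MSC IV (adjusted p = 0.00239) and -4.41 ± 0.55 for MSC IV minus MSC V (adjusted p = 0.0021). All 4 calls held under all 17 alternatives, the first ranging from 3.20 to 4.46 and the second from 3.02 to 4.37 when 1 array was left out, and the 6 pairs without MSC IV were not called.

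Ccn4 ran the other way and was highest in MSC IV. Its level was 7.77 and 8.34 in MSC I, 8.66 and 7.38 in MSC II, 9.44 and 9.25 in MSC III, 10.50 and 11.57 in MSC IV, and 10.05 and 9.87 in MSC V. Both MSC IV arrays lay above every other array, those of MSC V came next, and MSC I and MSC II overlapped at the low end. MSC I minus MSC IV was -2.98 ± 0.47 (adjusted p = 0.00204) and MSC II minus MSC IV -3.01 ± 0.47 (adjusted p = 0.00498), and both calls held under all 17 alternatives. With 1 array left out these differences ran from -3.51 to -2.44 and from -3.65 to -2.37. No neighbours in the order MSC IV, V, III, I and II were called different.

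The other 3 calls of Ccn4 depended on single arrays. MSC III minus MSC IV (-1.69, adjusted p = 0.0484) ended without either array of MSC I (adjusted p = 0.061 both times), MSC III (0.125 and 0.208) or MSC V (0.0637 and 0.0639), without MSC IV replicate 2 (-1.15, adjusted p = 0.259) and with the replicate block (adjusted p = 0.0868), over a range of 0.0259 to 0.259. MSC I minus MSC V (-1.91, adjusted p = 0.0232) ended without either array of MSC I (-1.62, adjusted p = 0.117, and -2.19, adjusted p = 0.0556) or of MSC V (adjusted p = 0.0921 and 0.0716), over a range of 0.0111 to 0.117. MSC II minus MSC V (-1.94, adjusted p = 0.0331) ended without MSC II replicate 2 (-1.30, adjusted p = 0.125), without either array of MSC III (0.0551 and 0.055) or MSC V (0.125 and 0.0896) and with the replicate block (adjusted p = 0.0674), over a range of 0.0275 to 0.125. MSC I minus MSC III (-1.29, adjusted p = 0.0771) was called without either array of MSC II (adjusted p = 0.0385), over a range of 0.0385 to 0.308.

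**Figure D2:**
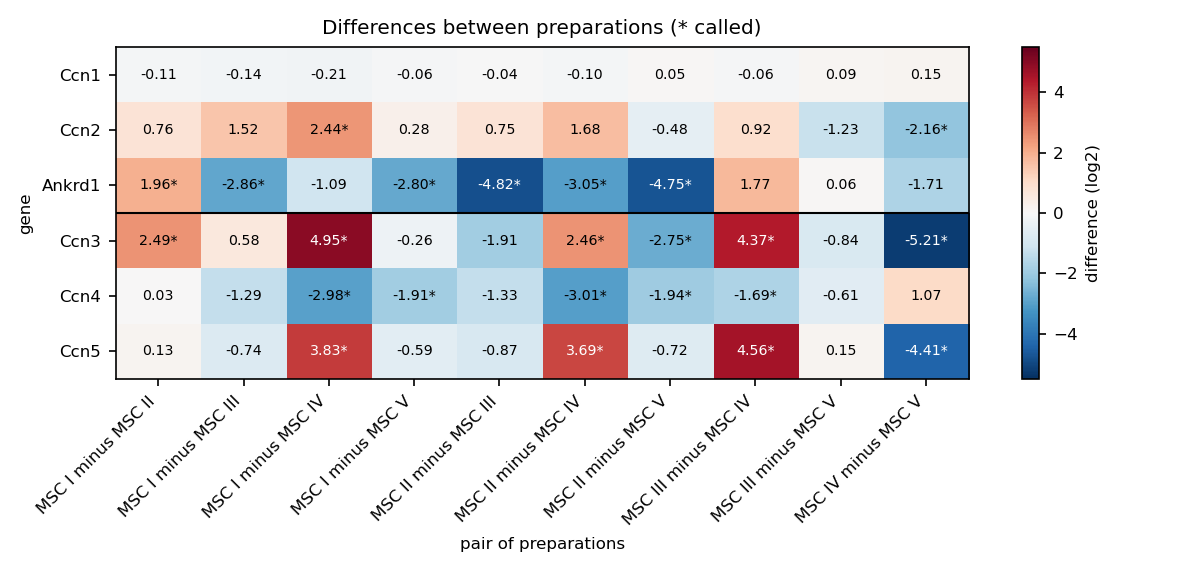
Difference in level (log2) for each gene (rows, YAP-driven genes above the line) and each pair of preparations (columns, the first named minus the second), with calls marked by an asterisk. Of the 23 calls, 14 were in pairs with MSC IV, with opposite signs for Ccn4 and for Ccn3 and Ccn5.

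By pair, the number of the 6 genes called was 4 for MSC I against MSC IV, where 20.3% of all tested genes were called, and 4 for MSC II against MSC IV (9.06% of tested genes). It was 3 for MSC II against MSC V (5.56%), 3 for MSC III against MSC IV (7.99%) and 3 for MSC IV against MSC V (10.9%). It was 2 for MSC I against MSC II (14.9%), 2 for MSC I against MSC V (10.5%), 1 for MSC I against MSC III (11.3%) and 1 for MSC II against MSC III (3.02%). Between MSC III and MSC V 0 of 6 were called, against 2.07% of tested genes. There limma gave an unadjusted p = 0.0438 for Ccn2 (-1.23) and p of 0.153 or more for the other genes. Pairs with MSC IV held 60.9% of the calls of these genes and 50.5% of the calls of all tested genes. For pairs with MSC I these shares were 39.1% and 59.6%, for MSC II 43.5% and 34.0%, for MSC III 21.7% and 25.5%, and for MSC V 34.8% and 30.4%. Pairs that share a preparation share its arrays, so their calls are not independent.

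The replicate arrays differed more for these genes than for most. The residual SD was 0.35 for Ccn1 and 0.56 to 0.79 for the others, larger than that of 84.7% (Ccn1) to 98.7% (Ankrd1) of tested genes, with a median of 0.18 over all of them. In MSC V the 3 YAP-driven genes were all higher on replicate 1, by 0.96 for Ccn1, 1.56 for Ccn2 and 0.68 for Ankrd1. The median absolute difference over tested genes was 0.21 there. Ccn3 (0.33) and Ccn4 (0.17) were also higher on that array and Ccn5 was lower (-0.72). The 3 YAP-driven genes were all lower on replicate 1 in MSC I (-0.41 for Ccn1, -0.38 for Ccn2 and -1.96 for Ankrd1). They were so in MSC III as well (-0.02, -0.26 and -0.41), while their signs were mixed in MSC II and MSC IV. In MSC IV, Ccn2 was lower on replicate 1 by 1.09 and Ankrd1 higher by 1.26. In MSC III, Ccn5 and Ccn1 differed by 0.04 and 0.02 while Ccn3 differed by 1.26.

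**Figure D3:**
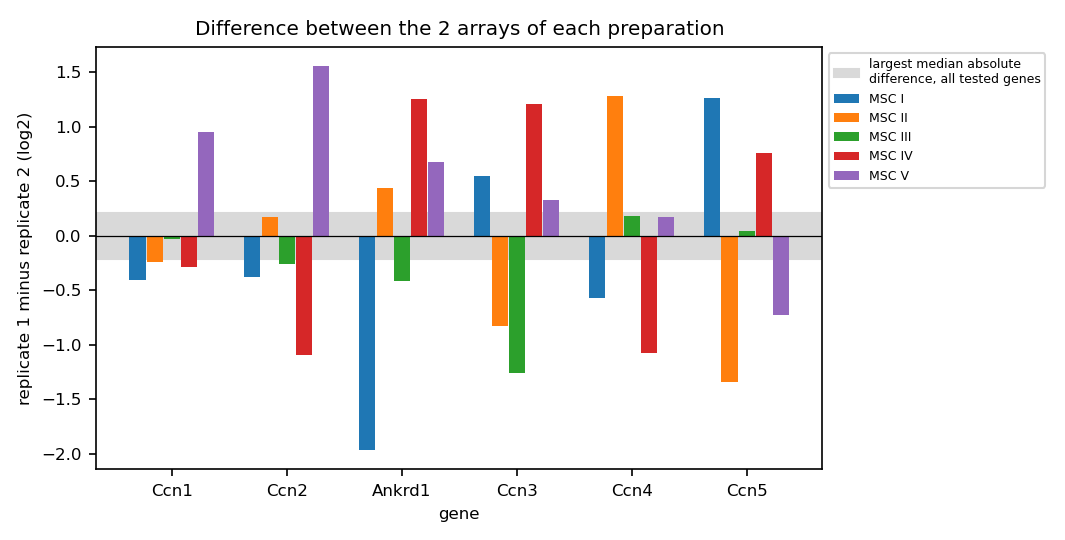
Difference between the 2 arrays of each preparation (replicate 1 minus replicate 2, log2) for each gene, with a grey band at the largest of the 5 median absolute differences over all tested genes (0.21). The largest bar is Ankrd1 in MSC I (-1.96). The bars of Ccn1, Ccn2 and Ankrd1 are all positive in MSC V, as are those of Ccn3 and Ccn4. In MSC I and MSC III the bars of Ccn1, Ccn2 and Ankrd1 are all negative.

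Genes around the family were described with 5 lists, whose 74 genes gave 67 tested and 33 called in the F test (49.3%, against 29.1% of all tested genes). Of the called genes 23 were lowest in MSC IV, which also held the lowest mean of 36.6% of called genes overall. Among 19 further genes of a published YAP and TAZ target signature, 18 were tested and 10 called, 7 of them lowest in MSC IV. The number called depended on single arrays, and was lowest when MSC IV replicate 2 was left out. Nt5e and Foxf2 both lay below the table median on the 2 MSC I arrays, so their ranges are set against levels not shown to be above background. Nt5e, the ecto-nucleotidase CD73, was at 11.21 ± 0.64 (SD, n = 2) in MSC IV and 5.92 ± 0.21 in MSC I (range 5.29, adjusted p = 0.000277), while the transcription factor Foxf2 was at 10.21 ± 0.07 in MSC V and 5.66 ± 0.10 in MSC I (range 4.55, adjusted p = 5.11e-06). F3, tissue factor, was highest in MSC I (11.59 ± 0.15) and lowest in MSC IV (8.44 ± 0.34, adjusted p = 0.000392), as were the receptor kinase Axl (range 2.06) and Crim1 (range 2.06). Fjx1 passed the filter in MSC I alone and could only be higher there. Amotl2 (range 0.96, adjusted p = 0.118) and Lats2 (range 0.42, adjusted p = 0.404), negative regulators of YAP that are themselves its targets, were not called. Amotl2 was called without MSC I replicate 1 (range 1.41, adjusted p = 0.0411), over a range of 0.0411 to 0.243.

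**Figure D4:**
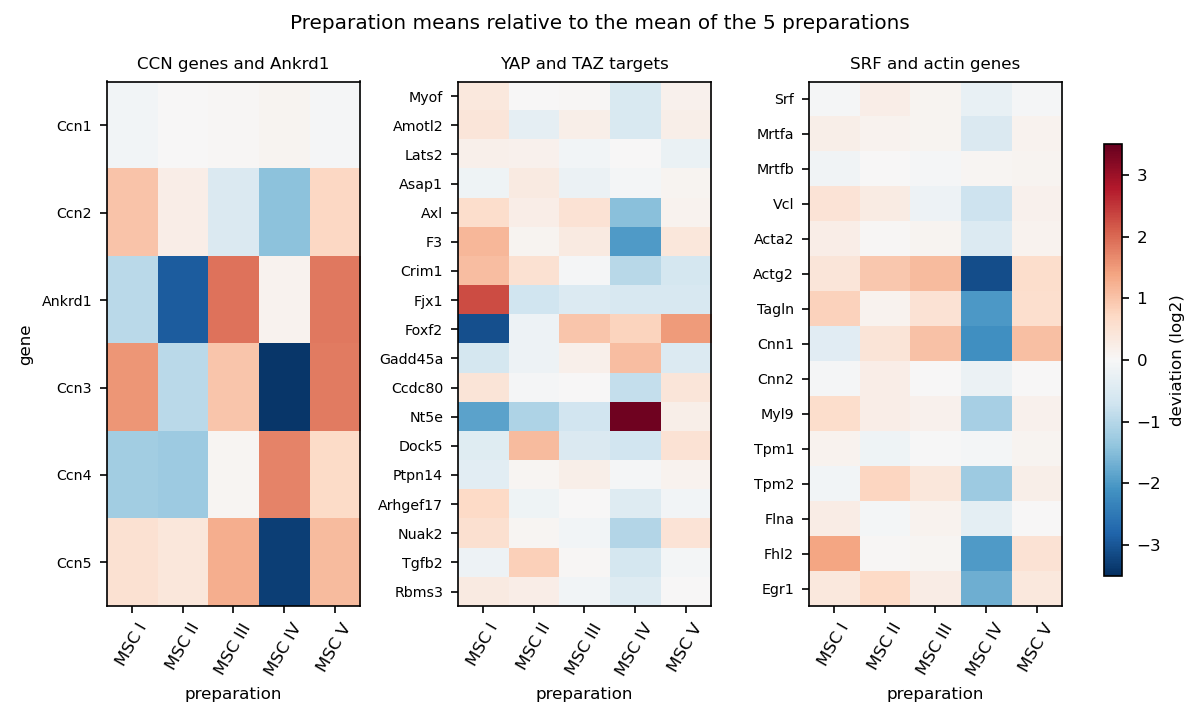
Mean level of each preparation minus the mean of the 5 preparations (log2) for the 6 genes, for 18 tested YAP and TAZ target genes and for 15 SRF and actin genes. The MSC IV column is at its most negative for Ccn3 and Ccn5 and for Actg2, and is positive for Ccn4 and Nt5e.

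Of 17 tested genes of the Hippo pathway, which restrains YAP, 6 were called (35.3%, against 29.1% of all tested genes). Yap1 itself was at 9.83 ± 0.13 in MSC IV and 10.90 ± 0.13 in MSC V (MSC IV minus MSC V -1.07 ± 0.13 SE, adjusted p = 0.00181), with 10.41 to 10.53 in the others. Its F call rested on the minimum of 1 log2, since its range was 0.98 without MSC V replicate 1 or MSC IV replicate 2 and 0.94 with arrays centred on their medians, while its adjusted p over all alternatives was 0.00316 to 0.0264. Wwtr1, which encodes TAZ, was not called (range 0.80, adjusted p = 0.0318), for its range alone. Unlike Yap1, it had its highest mean in MSC IV (10.66 ± 0.18), with its lowest in MSC I (9.85 ± 0.33). Without MSC I replicate 2 its range was 1.04, past the minimum of 1 log2. Its adjusted p was not under 0.05 under every alternative. Tead4 had its lowest mean in MSC II (6.76 ± 0.49) and its highest in MSC III (8.43 ± 0.00021), the same 2 preparations as Ankrd1 (MSC II minus MSC III -1.67, adjusted p = 0.0187). Its MSC II replicate 2 (6.41) lay below the table median. The other TEAD genes did not share both extremes. Tead1 (range 1.20, adjusted p = 0.028) was called, highest in MSC I and lowest in MSC IV, but not with the replicate block (adjusted p = 0.0593). Its call was also lost without replicate 2 of MSC I (range 0.91), of MSC III (range 1.20) or of MSC IV (range 0.89). Tead2 was highest in MSC I and lowest in MSC V, Tead3 highest in MSC III and lowest in MSC IV, neither called. Vgll3, a TEAD cofactor, was lowest in MSC IV (9.95 ± 0.53, range 1.70). Without MSC IV replicate 2 the list had 4 called genes.

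SRF is the transcription factor that, with MRTF cofactors, links actin assembly to contractile gene expression, and it shares some targets with YAP. Of 15 tested genes 8 were called (53.3%, against 29.1% of all tested genes). All 8 were lowest in MSC IV, as were 36.6% of all called genes. Among them were Actg2 (range 4.22), Fhl2 (range 3.37), Cnn1 (range 3.18) and Tagln (range 2.83). Srf (range 0.49, adjusted p = 0.253) and Acta2 (range 0.70, adjusted p = 0.00959) were not called, Acta2 for its range alone. Of 10 CCN receptor genes 3 were called (30.0%, against 29.1% of all tested genes), the integrin subunit Itgb3, Notch1 and the syndecan Sdc4. All 3 were highest in MSC I and lowest in MSC IV, where 38.0% of all called genes had their highest and 36.6% their lowest mean. Itgb3 lay below the table median on both arrays of MSC II, MSC III and MSC IV, and Notch1 on both of MSC IV. Their lowest levels are therefore not shown to be above background. Without MSC IV replicate 1, 6 were called, and with the stricter low-value filter 1 of 7.

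Of 12 Wnt and beta-catenin target genes 7 were tested and 6 called (85.7%, against 29.1% of all tested genes). The Wnt antagonist Dkk1 (10.64 ± 1.56) and Rnf43 (7.64 ± 0.09) passed the filter in MSC IV alone and could only be higher there. Lef1 (8.71 ± 0.38 in MSC I and 5.31 ± 0.43 in MSC IV) and Lgr5 (range 3.89) were lowest in MSC IV. Both lay below the table median on both MSC IV arrays, as Lef1 did in MSC II and MSC III. Those levels are not shown to be above background. Nkd1 (range 2.65) and Nkd2 (range 2.37), inhibitors of Wnt signalling, were highest in MSC I, at 8.61 ± 0.29 and 7.65 ± 0.06. Without either array of MSC IV, 4 of 5 tested genes were called. Axin2, the most widely used reporter of this pathway, stayed below the table median on all arrays.

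**Figure D5:**
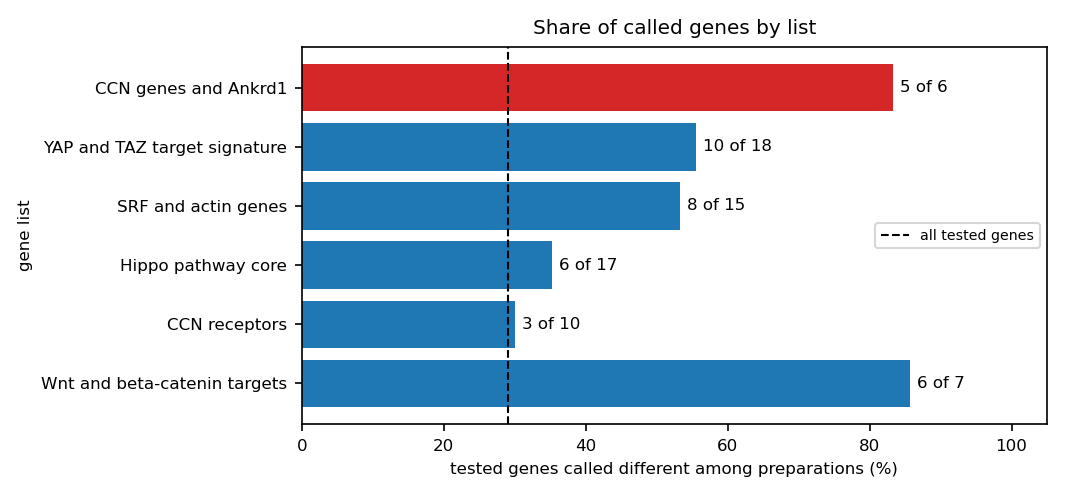
Share of tested genes called in the F test (%), for the 6 genes and 5 lists, with counts beside the bars and all tested genes (29.1%) as a dashed line. The lists were chosen with earlier results known, and in the Wnt list and the YAP list genes that passed the filter in 1 preparation alone add to the share.

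Ccn6, the family member outside the set, was at 4.99 to 5.26 on the 10 arrays, below the table median in every preparation. So was Ankrd2, a relative of Ankrd1 known from muscle (5.37 to 5.53). Ankrd23, another relative, lay above the median on all arrays (6.59 to 7.20) and was not called (range 0.35, adjusted p = 0.486). Genes whose levels followed each of the 6 most closely were taken by Pearson's r over the 10 arrays, which come from only 5 preparations, so high values are common and r describes these arrays alone. For Ccn5 they were the chemokine Cxcl12 (r = 0.974), Ada (0.970) and Pdk3 (0.970). For Ccn3 they were Scara3 (0.990), Pmp22 (0.978) and Cubn (0.977), for Ccn4 Sdhaf2 (0.976), the lysyl oxidase family gene Loxl4 (0.969) and Sorcs2 (0.962). For Ccn2 they were Tirap (0.992), the intermediate filament gene Nes (0.940) and Cox6c (0.938), for Ankrd1 Uck2 (0.963), Ndufaf5 (0.955) and Adgrf5 (0.925). For Ccn1 they were Ankrd13c (0.926), Fancg (0.920) and Dclre1b (0.911), whose own ranges were 0.16 to 0.29. Ranges under the minimum of 1 log2 were also those of Cox6c (0.29), Sdhaf2 (0.34), Ndufaf5 (0.44) and Uck2 (0.75). None of the 6 genes was among the 3 closest of another.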

How the data were processed

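Levels were log2 expression values that the authors deposited, 1 per probe set and array (35399 probe sets, no missing value). The notes on processing that the submitters gave name RMA and the Partek software (their versions are not given in the sources used here). Quantile normalisation in RMA gives the probe intensities of all arrays 1 distribution before they are summarised per probe set. The probe set levels used here need not share 1 distribution, and RMA shrinks differences at low levels. Detection calls were not used. Array medians lay between 6.45 and 6.63.

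Groups came from the sample titles. The 21789 probe sets with 1 symbol were used, 21698 of them updated through the mouse reference, and the one with the highest mean was kept per gene. Means of the preparations were fitted with limma 3.58.1 in R 4.3.3, with figures in Python 3.11.15. Errors after a difference are standard errors. Pair tests were two-sided, with Benjamini-Hochberg adjustment of each over 10971 genes, and a call had to reach a difference of 1 log2 beside the threshold of 0.05. The 17 alternatives included no filter, a filter at the 75th percentile, the mean of probe sets, arrays centred on their medians and a further quantile normalisation. The others were trend and robust eBayes, the replicate block and each array left out. The genes and lists were chosen with earlier results of these data known. All members were named, list genes by the widest range first, with further examples chosen after their values were seen, and the 3 genes of highest r per member, without predicted or clone names. Stk3, Tcf7 and Ly6a were not analysed here. The main fit did not pair arrays by replicate number.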

Additional observations from a re-analysis of the deposited data

How the results depend on the processing

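Of the 23 pair calls of the 6 genes, 11 held under all 17 alternatives and 12 were lost under at least 1. The number of pair calls was 18 to 23 with each array left out in turn, and 20 without the low-value filter. The number of the 6 genes differing in the F test was 4 or 5 with each array left out, and 4 without the filter, where the adjusted p of Ccn2 was 0.0504. The list genes called numbered 25 to 34 with an array left out. Over all tested genes the F test called 3192, against 2593 to 3300 with an array left out, 1861 with the filter at the 75th percentile, which tests fewer genes, and 5728 by adjusted p alone. No difference changed sign in a called result. The mean of probe sets, the median centring, the further quantile normalisation, the trend and robust settings and the stricter filter changed no call of the 6 genes. Since each of the 6 had 1 probe set, the mean of probe sets left their levels as they were and could not test them. Without the filter, the calls of Ankrd1 for MSC I minus MSC II (adjusted p = 0.0885) and of Ccn4 for MSC II minus MSC V (adjusted p = 0.0588) and MSC III minus MSC IV (adjusted p = 0.0862) were lost. These differences were the same as with the filter (1.96, -1.94 and -1.69). Only their p-values and the adjustment over more genes could change. Which of these ended the calls was not tested.

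With the replicate number as a block, 2724 genes and 5 of the 6 were called, with 20 pair calls. Arrays of the same number did not move together, since the correlation of their deviations from the preparation means ran from -0.555 to 0.203 over the 10 pairs. The deviations ran opposite between MSC I and MSC II (-0.555) and between MSC III and MSC V (-0.507). The block gives arrays of the same number 1 common shift and does not model such opposite deviations, whose source was not tested. Where an array was left out, the remaining array of its preparation was assumed to vary like the others. Low signal here does not show absence of a transcript.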
